A study of Mus musculus with 13 samples.

Results

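The Serpina3 cluster is a run of closely related serine protease inhibitor genes on mouse chromosome 12. Its 8 members examined here, Serpina3c, Serpina3f, Serpina3g, Serpina3h, Serpina3i, Serpina3k, Serpina3m and Serpina3n, were taken by their symbols in the GRCm38 annotation from the 49315 genes of the count tables. Bulk RNA-Seq of whole midbrain covered 13 male mice on a C57BL/6J background, 8–12 weeks old, with 1 library per animal. All were Ripk3 fl/fl, carrying floxed alleles of the kinase RIPK3. Mice with a tamoxifen-inducible Cre driven by the Aldh1l1 promoter, which is used to recombine in astrocytes (Ripk3fl/fl Aldh1l1Cre+, here Cre+), were compared with littermates that lack it (Ripk3fl/fl Aldh1l1Cre-, here Cre-). Tamoxifen (60 mg/kg for 5 days) came first. The paper states it for all animals with the Cre transgene and not separately for Cre- littermates. The 13 mice then received the dopaminergic neurotoxin MPTP (20 mg/kg, once a day for 5 days) or saline. They were perfused and dissected 3 days after the last dose. This gave 3 libraries each for Cre- Saline, Cre+ Saline and Cre- MPTP, and 4 for Cre+ MPTP.

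In humans the family has a single SERPINA3 gene, which codes for the plasma acute-phase protein alpha-1-antichymotrypsin, whereas the mouse carries a row of paralogs in its place. A serpin presents an exposed reactive center loop as bait to its target protease, is cleaved there, and traps the protease in a covalent complex, so the loop sets which proteases are inhibited. Serpina3n is the member known as a marker of reactive astrocytes and encodes a secreted inhibitor whose targets include granzyme B and neutrophil elastase. Serpina3g, also called Spi2A, encodes an inhibitor that acts inside cells against lysosomal cathepsins and is known from activated lymphocytes and myeloid cells. Serpina3c, Serpina3k and Serpina3m are known as liver genes, and Serpina3h is annotated as a transcribed pseudogene.

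The members lie between positions 104146382 and 104414329 of chromosome 12 (GRCm38), all on the plus strand except Serpina3c. Serpina3c (ENSMUSG00000066361) spans 104146382 to 104153870, Serpina3f (ENSMUSG00000066363) 104214544 to 104221129, and Serpina3g (ENSMUSG00000041481) 104236245 to 104241939. Serpina3h (ENSMUSG00000041449) spans 104247905 to 104253669 and Serpina3i (ENSMUSG00000079014) 104263122 to 104269372. Serpina3k (ENSMUSG00000058207) and Serpina3m (ENSMUSG00000079012) start at the same base, 104338486, and end at 104346144 and 104394257, and Serpina3n (ENSMUSG00000021091) spans 104406729 to 104414329. Serpina3k and Serpina3m share 60 bases of exon on the same strand, so reads from that stretch cannot be given to one of them, and Serpina3m also spans the pseudogene Serpina3l-ps without sharing exon with it. No other member shared annotated exon with a neighbor on either strand.

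The sequences that set the members apart are those coding for the reactive center loop. They are given below 5′ to 3′ as transcribed, from GENCODE M21 transcripts (GRCm38), with the loop in capitals between 4 codons before it and 5 codons after it. Each stretch lies within 1 coding exon. No loop is given for Serpina3h, which has no coding sequence in this annotation.
Serpina3n (chr12:104413445-104413540, plus strand): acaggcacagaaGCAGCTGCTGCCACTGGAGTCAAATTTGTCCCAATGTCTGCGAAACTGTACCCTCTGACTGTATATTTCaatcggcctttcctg
Serpina3m (chr12:104393766-104393861, plus strand): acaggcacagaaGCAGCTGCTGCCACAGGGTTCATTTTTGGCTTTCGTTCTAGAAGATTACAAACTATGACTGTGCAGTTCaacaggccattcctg
Serpina3k (chr12:104345266-104345355, plus strand): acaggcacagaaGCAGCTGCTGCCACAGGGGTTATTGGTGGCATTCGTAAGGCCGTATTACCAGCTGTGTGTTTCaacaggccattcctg
Serpina3i (chr12:104268477-104268572, plus strand): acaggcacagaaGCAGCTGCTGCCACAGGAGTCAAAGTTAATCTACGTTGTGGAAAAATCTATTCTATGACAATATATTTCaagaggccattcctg
Serpina3f (chr12:104220242-104220340, plus strand): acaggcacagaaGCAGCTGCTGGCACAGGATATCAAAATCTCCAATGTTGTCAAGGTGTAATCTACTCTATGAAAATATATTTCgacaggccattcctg
Serpina3g (chr12:104241069-104241164, plus strand): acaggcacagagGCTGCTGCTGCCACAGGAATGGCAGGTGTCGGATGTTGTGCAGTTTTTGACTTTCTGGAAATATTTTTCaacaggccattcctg
Serpina3c (chr12:104147304-104147390, minus strand): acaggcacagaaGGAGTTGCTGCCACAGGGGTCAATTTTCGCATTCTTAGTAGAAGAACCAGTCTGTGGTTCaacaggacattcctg

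The lower-case ends are nearly shared, while the capitals differ in letters and in length, from 60 bases in Serpina3c to 72 in Serpina3f. Counting only aligned bases of the coding sequence, the 21 pairs of the 7 coding members were 81.2% to 92% identical. The coding sequence of Serpina3g in this annotation is shorter than the others, so its 6 pairs align over only 642 to 744 bases. With gaps counted, the 15 pairs without Serpina3g were 72.6% to 91.1% identical over the coding sequence and 53.4% to 72.5% within the capitals, lower within the capitals in each pair. Serpina3k and Serpina3m were the closest pair in coding sequence (91.1% with gaps counted) and were 68.1% identical in the loop. Serpina3n was 83% identical to Serpina3i over the coding sequence and 72.5% in the loop on the same measure. This similarity bears on how reads can be counted. The longest Serpina3n transcript shared 0.204% of its 100-base windows and none of its 150-base windows, the read length, exactly with a transcript of another of the 14 Serpina3 genes. For Serpina3f, Serpina3g, Serpina3h, Serpina3i and Serpina3m, 2.33% to 6.09% of the 100-base windows were shared, mostly among themselves or with Serpina3k. Of these windows, 1 of Serpina3g was shared with Serpina3n, and none of the other members' windows was.

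Total counts per library ranged from 11489150 (Cre- MPTP replicate 1) to 29397278. Cre- MPTP replicate 1 stood apart in other ways too, with 21101 genes detected against 25432 to 27186 in the other libraries. It had 298 CPM of the endothelial gene Cldn5 where its group mates had 49 and 60.3 CPM, and 10.8 CPM of the dopamine transporter gene Slc6a3 against 49.6 and 55.5 CPM. Ripk3 had few counts in every group, 4 to 11 per library in Cre- Saline, 6 to 10 in Cre+ Saline, 6 to 40 in Cre- MPTP and 4 to 19 in Cre+ MPTP, so it did not check the genotype of single mice. Levels are given as counts, or as CPM, counts scaled by the TMM-adjusted size of the library, so that each library sums to the same nominal total. The 7 markers of dopaminergic neurons summed to between 248 and 358 CPM in every library. No other region was sequenced beside them, so this sum cannot check the midbrain label. It also covers single markers that differed both ways in Cre- MPTP replicate 1. There Slc6a3 was low, as given above, and En1 was at 61 CPM against 17.2 and 11.4 CPM in its group mates. Summed astrocyte markers lay between 3421 and 3995 CPM in Saline libraries, 2164 and 4150 CPM in Cre- MPTP and 3683 and 3981 CPM in Cre+ MPTP libraries. The low end in Cre- MPTP was replicate 1. Of these 7 markers 1, Aldh1l1, was higher with MPTP in Cre- mice (log2 fold change 0.649, SE 0.154, adjusted p = 0.0403, edgeR). That stands beside 2.23% of all genes tested, and no astrocyte marker was lower. The 6 hepatocyte markers summed to at most 1.3 CPM in any library. Whole tissue was sequenced, so more cells of a type and more RNA per cell cannot be told apart in what follows.

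Serpina3n was the most abundant member per kilobase of exon in each of the 4 groups. In Cre- Saline midbrain it stood at 8.71 ± 0.833 CPM per kb (SD, n = 3) and Serpina3g followed at 1.8 ± 0.301 CPM per kb. Serpina3c (0.127 CPM per kb), Serpina3h (0.082), Serpina3f (0.0319), Serpina3i (0.0287) and Serpina3m (0.0223) came next, in an order that their spread over libraries did not resolve beyond Serpina3g. Serpina3k had 0 counts in all 13 libraries, which allows a level of up to 0.00968 CPM over their summed total. In Cre- MPTP midbrain Serpina3n stood at 221 ± 72.8 CPM per kb. Serpina3f (2.64 ± 1.6) and Serpina3g (2.36 ± 0.588) had overlapping levels per kb there, and Serpina3m (1.12 ± 0.278), Serpina3i (0.907 ± 0.195) and Serpina3h (0.715 ± 0.425) also overlapped. Serpina3c was lowest of the detected members at 0.285 ± 0.129 CPM per kb.

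**Figure D1:**
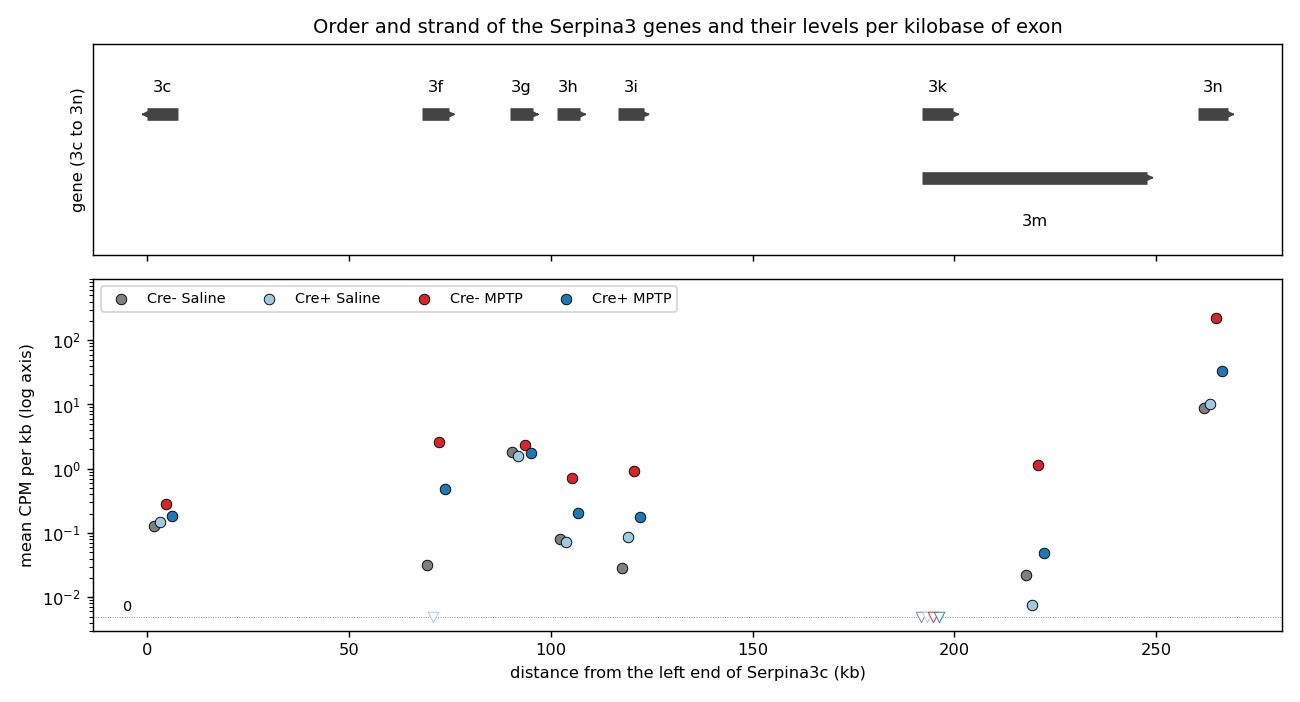
The upper panel draws the 8 genes to scale along the chromosome, with arrows for the strand, against distance in kb from the left end of Serpina3c. The lower panel gives each gene's mean level per kilobase of exon in the 4 groups on a log axis, with open triangles at the dotted line for groups with 0 counts. Serpina3n stood highest in every group and Serpina3k was at 0 in every group.

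To ask how the cluster responds to MPTP when astrocytic Ripk3 is intact, Cre- MPTP was compared with Cre- Saline. Serpina3n rose about 25.3-fold, from 18 ± 1.72 CPM (SD, n = 3) to 456 ± 150 CPM (n = 3). Serpina3m and Serpina3i, nearly absent from Saline midbrain, rose as well, and Serpina3g and Serpina3c did not pass the test. In all, 3 of the 7 members tested were higher at an adjusted p under 0.05, beside 2.23% of the 19360 genes tested, and none was lower (quasi-likelihood test of edgeR, p-values adjusted over all genes tested after Benjamini and Hochberg). Serpina3m, Serpina3i, Serpina3f and Serpina3h reached the count filter only with the help of the Cre- MPTP libraries, where they were highest, so this count is a description of the members and no support beside that share. With no filter beyond 1 count in any library 4 members were called, Serpina3n (adjusted p = 0.00017), Serpina3m (0.00623), Serpina3i (0.0192) and Serpina3f (0.0482). The number called was 1 without any 1 of the Cre- Saline libraries or of Cre- MPTP replicates 2 and 3, and 4 without Cre- MPTP replicate 1. Serpina3k was not tested because it had no counts. In this comparison the groups did not overlap for 15.1% of the 19360 genes tested. That share stands beside each member below whose groups did not overlap.

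In the 3 Cre- Saline libraries 456, 503 and 444 reads were assigned to Serpina3n, or 18.1, 19.6 and 16.2 CPM. With MPTP these numbers were 2682, 12429 and 17697, or 290.7, 492 and 584 CPM. The groups did not overlap, and the lowest Cre- MPTP library, replicate 1, also had the lowest total of all libraries. This is a log2 fold change of 4.66 with an SE of 0.655 (edgeR, adjusted p = 0.00232). It stayed past the threshold under every alternative run, with a log2 fold change of 4.44 to 4.91 when any library was left out.

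Serpina3m had 1 count in each Cre- Saline library and 16, 40 and 75 counts after MPTP. Its groups did not overlap, and 131 counts against 3 gave a ratio of 52.7 after scaling to the library totals. The 95% exact counting interval was 17.7 to 259, which leaves out the spread between mice. The adjusted p from edgeR was 0.0102, and dropping any 1 Cre- Saline library raised it to between 0.0585 and 0.0676. The gene reached 10 counts only in the Cre- MPTP libraries, so among the genes tested it had to differ.

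Serpina3i, whose product is a little studied paralog, went from 2, 1 and 2 counts with saline to 14, 57 and 69 with MPTP. Its groups did not overlap, and the log2 fold change of 4.89 (SE 1.15) passed at an adjusted p of 0.0365 in edgeR. This call was not robust to single libraries. Leaving out 1 Cre- Saline library at a time gave adjusted p of 0.138, 0.179 and 0.145, leaving out Cre- MPTP replicate 2 or 3 gave 0.0541 or 0.0663, and leaving out Cre+ Saline replicate 2 gave 0.0578 (edgeR).

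Serpina3f was at 0, 0 and 6 counts with saline and at 17, 196 and 259 with MPTP. The groups did not overlap, but the log2 fold change of 6.25 had an SE of 1.79 and did not pass the test (adjusted p = 0.116, edgeR). Dropping Cre- MPTP replicate 1 gave 6.66 and a call (adjusted p = 0.0261, edgeR), as did dropping Cre+ MPTP replicate 2 (adjusted p = 0.0117), a library that enters this comparison only through the shared estimate of the spread. The pseudogene Serpina3h was at 2, 7 and 0 counts with saline and 4, 25 and 50 with MPTP, with a log2 fold change of 3.16 (SE 0.952, adjusted p = 0.121, edgeR). It reached 3.47 and passed once Cre- MPTP replicate 1 was dropped (adjusted p = 0.0286, edgeR).

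Serpina3g, the intracellular cathepsin inhibitor, had 77, 107 and 113 counts with saline (3.06 to 4.18 CPM) and 33, 136 and 180 with MPTP (3.58 to 5.94 CPM). The groups overlapped, since Cre- MPTP replicate 1 lay below 2 of the 3 Saline libraries, and the fitted change of 0.41 on the log2 scale (SE 0.23) did not pass (adjusted p = 0.413, edgeR). limma voom called it at a similar size (0.49, adjusted p = 0.0368). Serpina3c went from 3, 13 and 6 to 3, 17 and 27 counts, and these also overlapped (log2 fold change 1.23, SE 0.748, adjusted p = 0.439, edgeR). For Serpina3g the counts were deep enough to give a small standard error, so its fitted change was far below the log2 change of Serpina3n in size, although the difference between the 2 genes was not tested.

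**Figure D2:**
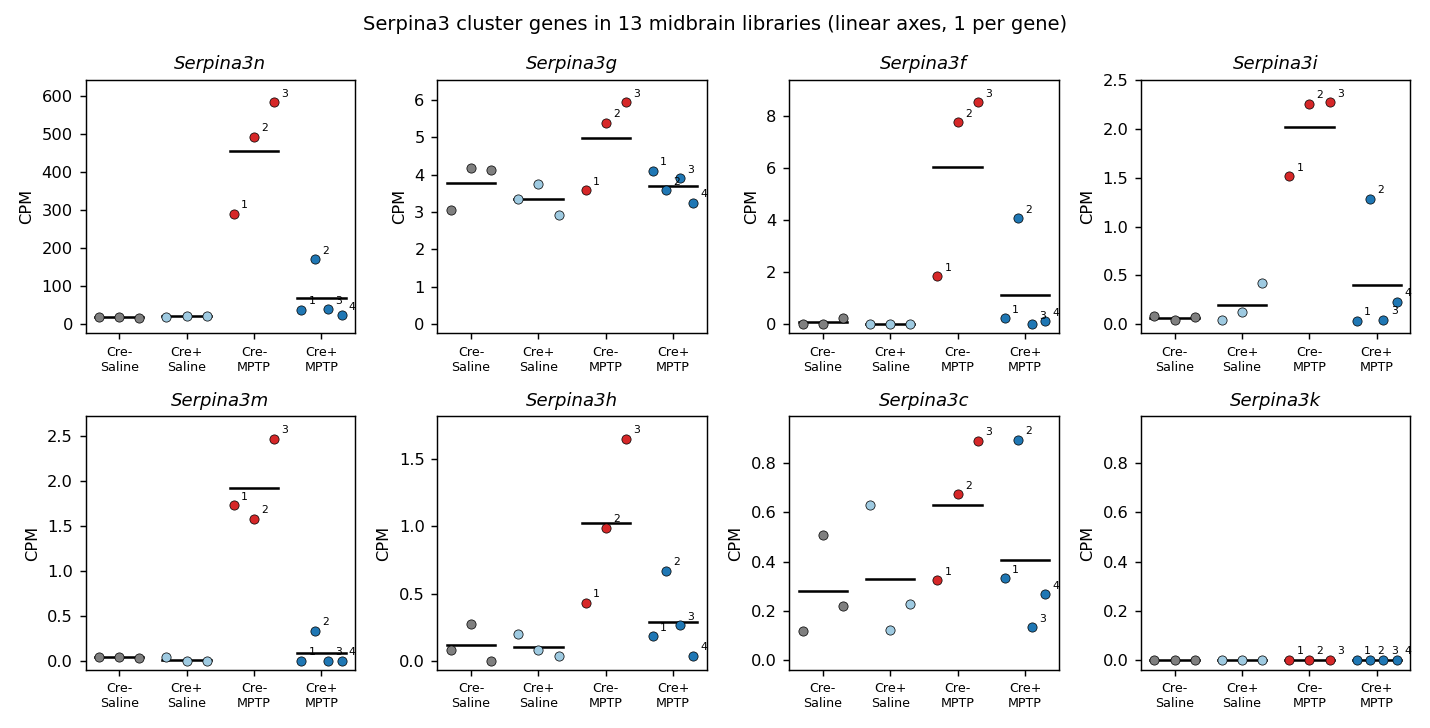
Each panel plots 1 gene's CPM in the 13 libraries on its own linear axis, with a point per library, a bar at the group mean, and replicate numbers beside the MPTP points. The 3 Cre- MPTP libraries lay above every other library for Serpina3n, Serpina3i and Serpina3m, Cre+ MPTP replicate 2 was the highest library outside that group for 6 of the genes, and the Serpina3g groups lay close together.

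The same comparison was made in mice with the astrocytic deletion, Cre+ MPTP against Cre+ Saline. No member passed the test, and neither did any other gene (0% of 19360, edgeR), while 672 genes had an unadjusted p under 0.05. DESeq2 and limma voom called 83 and 294 genes there, and neither called a member, with adjusted p of 0.16 and 0.134 for Serpina3n. Cre+ Saline libraries held 494, 520 and 572 counts of Serpina3n, or 19.5, 21.1 and 21.8 CPM. Cre+ MPTP libraries held 1041, 3047, 902 and 631, or 38.5, 170.5, 40 and 24.1 CPM. Over all genes tested, 9.66% had groups that did not overlap in this comparison. For Serpina3n the 4 MPTP libraries lay above the 3 Saline libraries, replicate 4 only just, and replicate 2 stood well above the other 3. This gave a log2 fold change of 1.71 with an SE of 0.557 (unadjusted p = 0.00942, adjusted p = 1, edgeR), and 0.72 once replicate 2 was dropped.

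Serpina3f was at 0 counts in every Cre+ Saline library and had 6, 73, 0 and 3 counts in the Cre+ MPTP libraries. Summed over the groups, 82 counts against 0 gave a 95% exact counting interval with a lower limit of 17.7-fold, which leaves out the spread between mice. Of the 82 counts 73 came from replicate 2 and 9 from the other 3 libraries. The Serpina3f groups overlapped, and the gene did not pass the test in edgeR. Serpina3m was at 1, 0 and 0 counts with saline and 0, 6, 0 and 0 with MPTP, a ratio of 4.88 with a counting interval of 0.592 to 225. Serpina3i overlapped between 1, 3 and 11 counts with saline and 1, 23, 1 and 6 with MPTP. Its log2 fold change was 0.91 (SE 1.01) and turned to -0.87 without replicate 2 and to -0.61 under limma voom. Serpina3h (log2 fold change 1.34, SE 1), Serpina3c (0.26, SE 0.717) and Serpina3g (0.15, SE 0.217) had overlapping groups too, and the sign for Serpina3c turned when Cre+ MPTP replicate 2 (-0.40) or Cre+ Saline replicate 2 (-0.12) was dropped.

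To ask what astrocytic Ripk3 loss changes under MPTP, Cre+ MPTP was compared with Cre- MPTP. Serpina3n fell about 6.69-fold, to 68.3 ± 68.5 CPM (SD, n = 4), and Serpina3m fell from 16 to 75 counts per library to 6 counts in 1 library and 0 in the other 3. These 2 of the 7 members tested were lower at an adjusted p under 0.05, beside 1.03% of all genes tested, and none was higher. Serpina3m was tested only because the Cre- MPTP libraries, the higher side here, carried it past the count filter, so this count too is only a description. The other 5 members had negative log2 fold changes that did not pass the test. Between genotypes under MPTP the groups did not overlap for 11.3% of all genes tested, the share beside members without overlap here. These comparisons share the Cre- MPTP libraries with the first one, so their values are given side by side and are not independent of it.

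For Serpina3n, all 4 Cre+ MPTP libraries (24.1 to 170.5 CPM) lay below the 3 Cre- MPTP libraries (290.7 to 584 CPM). The difference amounted to -2.74 on the log2 scale with an SE of 0.539 (edgeR, adjusted p = 0.0278). The call rested on few libraries. Leaving out Cre+ MPTP replicate 1, 3 or 4 gave -2.55, -2.55 or -2.46 and an adjusted p of 0.0964, 0.0986 or 0.0595 (edgeR). Leaving out 1 Cre- Saline library gave 0.0503 each time, and leaving out Cre+ Saline replicate 3 gave 0.05, with log2 fold changes of -2.74 to -2.75. A fit to the MPTP libraries alone gave -2.75 and an adjusted p of 0.309 (edgeR). Leaving out replicate 2, the library nearest to the Cre- group, deepened the fall to -3.74.

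Serpina3m fell by 4.73 on the log2 scale with an SE of 0.876 (edgeR, adjusted p = 0.0217). Its 131 counts against 6 gave a ratio of 0.0317 with a counting interval of 0.0114 to 0.0708, which leaves out the spread between mice. With no filter beyond 1 count the adjusted p was 0.0117 (edgeR). Leaving out replicate 1, 3 or 4 raised the adjusted p to 0.0734, 0.0711 or 0.0591 (edgeR), and without replicate 2 the Cre+ MPTP group held 0 counts of the gene. Serpina3i was lower in every Cre+ MPTP library (0.037 to 1.29 CPM) than in every Cre- MPTP library (1.52 to 2.28 CPM), with a log2 fold change of -2.45 (SE 0.857) that did not pass (adjusted p = 0.195, edgeR). Once replicate 2 was dropped it passed at -4.22 (adjusted p = 0.0115, edgeR). Serpina3f (-2.55, SE 1.24) and Serpina3h (-1.96, SE 0.798) overlapped between genotypes through replicate 2, and without that library Serpina3f passed at -5.67 (adjusted p = 0.0262, edgeR). Serpina3g had 111, 64, 88 and 85 counts in Cre+ MPTP libraries, or 3.24 to 4.1 CPM, which overlapped the Cre- MPTP range of 3.58 to 5.94 CPM (log2 fold change -0.44, SE 0.215, adjusted p = 0.289, edgeR), and limma voom called it lower (-0.57, adjusted p = 0.0259). Serpina3c had 9, 16, 3 and 7 counts there (-0.75, SE 0.683).

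**Figure D3:**
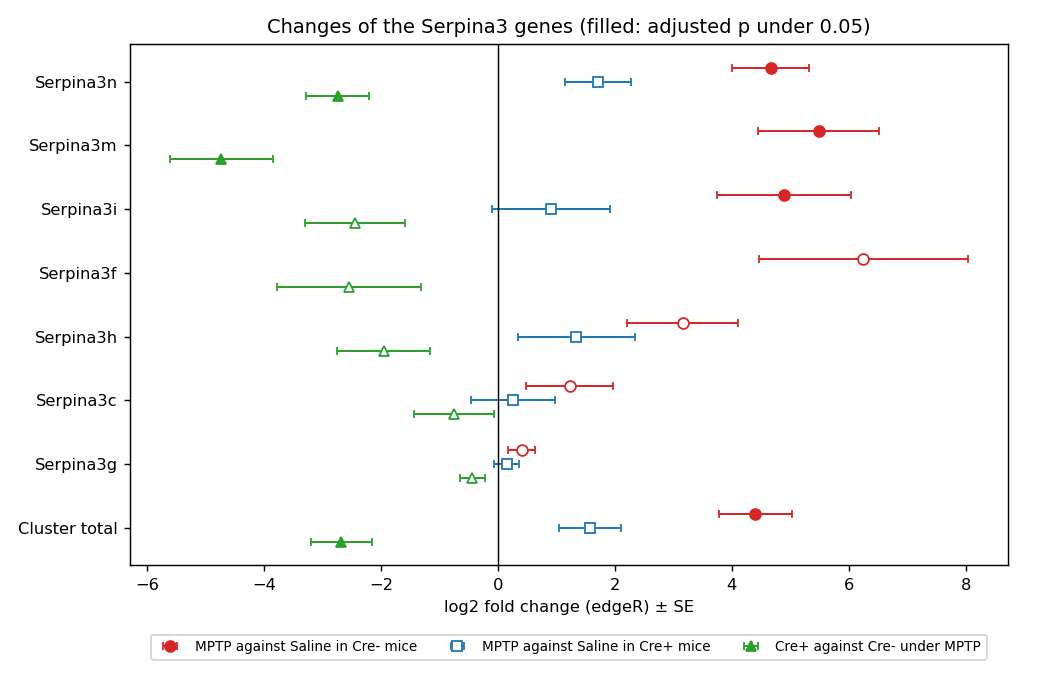
The log2 fold change of each of the 7 tested genes and of their summed counts is drawn with its SE, by marker shape for the 3 comparisons, filled where the adjusted p was under 0.05. Serpina3f and Serpina3m are left out of the Cre+ MPTP against Cre+ Saline comparison because their Saline counts were 0 and 1. Filled circles stand at Serpina3n (4.66), Serpina3m (5.48), Serpina3i (4.89) and the total (4.40), and the Serpina3g points lie within 0.5 of 0.

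In Saline midbrain no member differed between genotypes at an adjusted p under 0.05, and no gene did (0%, with 176 genes at an unadjusted p under 0.05, edgeR, and 2 and 3 genes called by DESeq2 and limma voom). Serpina3n had a log2 fold change of 0.21 (SE 0.57) and Serpina3g of -0.18 (SE 0.231), and both overlapped. The values were 0.21 (SE 0.774) for Serpina3c, -0.14 (SE 1.15) for Serpina3h and 1.54 (SE 1.3) for Serpina3i, all with overlapping groups. Serpina3f had 6 counts in Cre- Saline and 0 in Cre+ Saline libraries and Serpina3m 3 and 1, too few to compare. The interaction, which tests whether the response to MPTP differed between the genotypes, was -2.95 for Serpina3n with an SE of 0.783 (edgeR, unadjusted p = 0.00256, adjusted p = 0.283). No member passed this test, beside 0.0103% of all genes. The Serpina3n interaction passed with DESeq2 (-2.97, adjusted p = 0.0149), with limma voom (-3.73, adjusted p = 0.000498) and in edgeR once Cre+ MPTP replicate 2 was dropped (-3.95, adjusted p = 0.0024). It was -1.82 (SE 1.45) for Serpina3h, -3.98 (SE 1.56) for Serpina3i, -0.97 (SE 1.04) for Serpina3c and -0.25 (SE 0.316) for Serpina3g, none of which passed in edgeR. No interaction is given for Serpina3f and Serpina3m, whose Cre+ Saline libraries held 0 counts and 1 count.

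The counts of the 8 members were also summed to 1 value per library. The total rose from 22.3 ± 2.04 CPM in Cre- Saline (SD, n = 3) to 472 ± 157 CPM in Cre- MPTP, a log2 fold change of 4.40 (SE 0.624, adjusted p = 0.00227, edgeR). In Cre+ mice it went from 24.8 ± 0.917 CPM to 74.2 ± 71.8 CPM (n = 4), a log2 fold change of 1.57 that did not pass (SE 0.534, adjusted p = 1, edgeR). Between genotypes under MPTP it fell by 2.68 on the log2 scale (SE 0.518, adjusted p = 0.0265, edgeR), a call lost when replicate 1, 3 or 4 of the Cre+ MPTP group was dropped (adjusted p = 0.094, 0.0954 or 0.0585). The total therefore followed Serpina3n, which held most of the counts.

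Serpina3n took a larger share of these counts after MPTP than after saline in Cre- mice, a difference that 3 against 3 libraries cannot bring past a threshold of 0.05. Serpina3n held 84.3%, 79.6% and 77.6% of the cluster's counts in Cre- Saline libraries and 96.9%, 96.3% and 96.4% in Cre- MPTP libraries, with no overlap. The difference in mean share was 16 percentage points, and the two-sided exact permutation test gave p = 0.1, the smallest that 3 against 3 libraries allow. In Cre+ MPTP libraries Serpina3n held 88.7%, 94%, 90.2% and 86.1%, all below the Cre- MPTP libraries, a difference of -6.78 points (two-sided exact permutation p = 0.0571, where 0.0286 is the smallest possible). Serpina3g held 14.2% to 19.8% in Cre- Saline libraries and 0.981% to 1.19% in Cre- MPTP libraries. In Cre+ MPTP libraries Serpina3g held 1.97% in replicate 2 and 8.8% to 11.6% in the other 3.

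**Figure D4:**
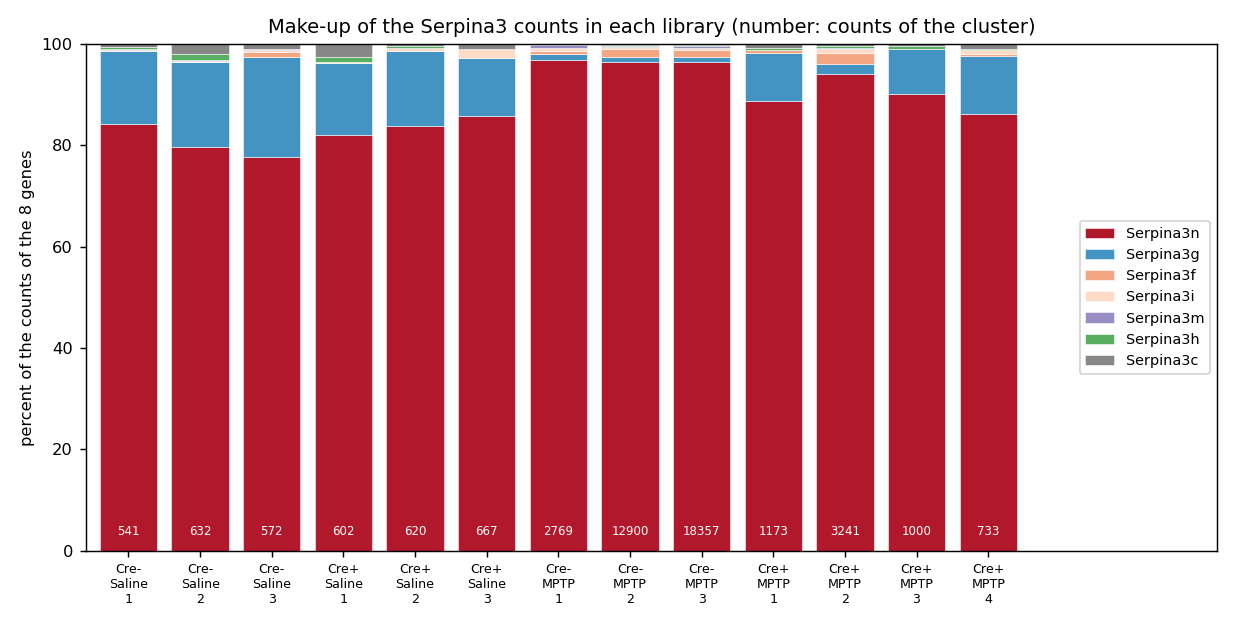
Each bar gives the percent of the cluster's counts held by each gene in 1 library, from 0 to 100, with the number of counts at its foot. Serpina3n takes 96.3% to 96.9% in the Cre- MPTP libraries and 77.6% to 85.8% in the Saline libraries, and Serpina3g holds most of the rest in every library outside Cre- MPTP except Cre+ MPTP replicate 2.

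The counts of the minor members were also set against those of Serpina3n. Serpina3i had 5 counts for 1403 of Serpina3n in Cre- Saline (0.356%, 95% exact binomial interval 0.116% to 0.834%) and 140 for 32808 in Cre- MPTP (0.427%, 0.359% to 0.504%). Serpina3m had 0.214% (0.044% to 0.626%) and 0.399% (0.334% to 0.474%), so for both genes the ratio to Serpina3n in Saline and MPTP could not be told apart at this depth. Serpina3f had 0.428% (0.157% to 0.933%) in Cre- Saline and 1.44% (1.31% to 1.58%) in Cre- MPTP, but all 6 Saline counts came from replicate 3, and single libraries overlapped, at 0% to 1.35% in Cre- Saline and 0.634% to 1.58% in Cre- MPTP. Serpina3g had 21.2% (18.6% to 24%) and 1.06% (0.954% to 1.18%), and Serpina3c 1.57% (0.979% to 2.38%) and 0.143% (0.105% to 0.19%), both lower in each library with MPTP than in any with saline. Serpina3h had 0.642% (0.293% to 1.22%) and 0.241% (0.191% to 0.3%), with intervals that overlap. These intervals cover counting error over pooled libraries and not the spread between mice. The part of shared sequence in the ratios of Serpina3i and Serpina3m was not tested, and neither gene shared a 100-base window with Serpina3n.

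The DNA upstream of the members was compared because several of them moved together. The RefSeq promoter table (GRCm38.p6) held 5 of the 8 members, Serpina3c, Serpina3f, Serpina3g, Serpina3i and Serpina3n. The 250 bases before each start are given 5′ to 3′ in the direction of transcription, with matches to 2 motifs in capitals. These are the STAT motif TTCNNNGAA, read by the factors that IL-6 family cytokines activate, and the NF-kappaB-type motif GGGNNTTTC, both searched on both strands, and no match of one overlapped a match of the other. For Serpina3f the more upstream of its listed starts is shown.
Serpina3n (chr12:104406458-104406707, plus strand): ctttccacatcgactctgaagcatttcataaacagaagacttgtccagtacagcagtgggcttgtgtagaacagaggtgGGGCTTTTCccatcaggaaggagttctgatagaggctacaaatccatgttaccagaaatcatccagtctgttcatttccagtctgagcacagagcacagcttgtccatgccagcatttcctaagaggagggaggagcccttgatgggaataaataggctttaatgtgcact
Serpina3i (chr12:104262872-104263121, plus strand): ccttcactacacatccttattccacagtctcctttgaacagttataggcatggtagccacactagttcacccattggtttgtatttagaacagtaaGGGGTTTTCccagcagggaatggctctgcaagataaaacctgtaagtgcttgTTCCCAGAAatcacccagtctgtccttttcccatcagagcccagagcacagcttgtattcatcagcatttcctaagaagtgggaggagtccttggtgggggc
Serpina3f (chr12:104214294-104214543, plus strand): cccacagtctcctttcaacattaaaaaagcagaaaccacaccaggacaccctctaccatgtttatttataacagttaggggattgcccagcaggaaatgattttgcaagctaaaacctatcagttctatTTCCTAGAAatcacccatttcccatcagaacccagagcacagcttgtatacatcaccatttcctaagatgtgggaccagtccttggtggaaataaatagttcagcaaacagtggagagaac
Serpina3g (chr12:104235897-104236146, plus strand): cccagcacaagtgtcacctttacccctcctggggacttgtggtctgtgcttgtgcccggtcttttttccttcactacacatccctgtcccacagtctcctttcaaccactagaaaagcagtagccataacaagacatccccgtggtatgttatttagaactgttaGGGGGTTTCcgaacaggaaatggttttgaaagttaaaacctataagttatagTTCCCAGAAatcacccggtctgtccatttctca
Serpina3c (chr12:104153873-104154122, minus strand): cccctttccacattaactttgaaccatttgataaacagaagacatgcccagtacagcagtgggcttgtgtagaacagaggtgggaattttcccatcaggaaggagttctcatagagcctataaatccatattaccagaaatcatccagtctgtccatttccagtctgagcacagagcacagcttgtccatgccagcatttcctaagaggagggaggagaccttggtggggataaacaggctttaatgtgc

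The Serpina3n window was 92.7% identical to that of Serpina3c over 247 aligned bases. It was 76.1% identical to Serpina3i over 222 aligned bases, 70.1% to Serpina3f over 231 and 69.9% to Serpina3g over only 156. A link between these windows and the response to MPTP was not tested. A STAT match was found in Serpina3i at -102 from the start, in Serpina3f at -121 and in Serpina3g at -33, beside 7.02% of the 32851 promoter windows of this length. At the aligned place Serpina3n (at -123) and Serpina3c (at -120) differ from the Serpina3i match by C3A, counted from 1 at the 5′ end of the motif with the Serpina3i base first, and hold no match there. Serpina3f differs from Serpina3i there by C5T, within the free letters of the motif. The NF-kappaB-type motif was matched in Serpina3n at -171, Serpina3i at -154 and Serpina3g at -85, and not in Serpina3f or Serpina3c, beside 3.72% of all windows. The core ACANNNTGT of the glucocorticoid receptor motif was matched in Serpina3n, Serpina3c, Serpina3f and Serpina3i and in 5.84% of all windows. In these members it lay downstream of the STAT position, at a place beyond the end of the Serpina3g window. That window therefore could not show the same match. The C/EBP motif TTGCNNCAA was matched in none of the 5 and in 1.74% of all windows. Serpina3g and Serpina3i each hold both of the motifs shown in capitals. These are matches of letters and no measurement of binding.

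The 5 genes whose log2 CPM over the 13 libraries was most like that of Serpina3n, by Pearson's r among 16040 genes, were A2m (0.977), Cp (0.972), Zfand4 (0.97), Icam1 (0.969) and Igsf6 (0.969). A2m encodes the protease inhibitor alpha-2-macroglobulin and Cp the ferroxidase ceruloplasmin, both plasma acute-phase proteins in some species, and Icam1 encodes a leukocyte adhesion molecule. A2m had 11.7 ± 1.15 CPM in Cre- Saline, 93.6 ± 14 in Cre- MPTP and 25.9 ± 12.1 in Cre+ MPTP libraries. By Spearman's rho the leading genes were others, Rgl1, Ifi44 and Lao1 (0.962 each), so the order depended on the measure. For Serpina3f the first was Ms4a6b (0.965), followed by Osmr, the oncostatin M receptor (0.96). For Serpina3g they were Garnl3 (0.901) and Kdm4a (0.897), none of them among the genes most like Serpina3n. Within the cluster, the r with Serpina3n was 0.946 for Serpina3m, 0.942 for Serpina3f, 0.907 for Serpina3i, 0.893 for Serpina3h, 0.656 for Serpina3g and 0.631 for Serpina3c. The libraries fall into 4 groups, so these values mostly describe the differences between groups.

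Among 20 genes of the pathways known to induce Serpina3n (IL-6 family cytokines and receptors, IL-1 and TNF, glucocorticoid and interferon signaling), 16 were tested. In Cre- mice 9 of them rose with MPTP, beside 2.23% of all genes tested, and none fell. The median log2 fold change of the 16 was 1.26 against 0.03 for all genes. Socs3, the feedback inhibitor that STAT3 induces, rose by 4.64 on the log2 scale (SE 0.718, adjusted p = 0.00338, edgeR). Cebpd, an acute-phase transcription factor, rose by 4.79 (SE 0.922), Tnf by 4.33 (SE 0.951) and the glucocorticoid-induced Fkbp5 by 2.75 (SE 0.28). Tnf lay near the floor, with 69 counts over all 13 libraries and a mean of 0.026 CPM in Cre- Saline. It reached the count filter only through MPTP libraries, so its rise is only a description. DESeq2 gave no adjusted p for Cebpd or Tnf in this comparison, and limma voom called both. Under MPTP 6 of the 16 were lower in Cre+ mice, beside 1.03% of all genes tested, and none was higher. The median of the 16 was -0.91 against 0.03. Among the 6 were Cebpd (-4.54, SE 0.809), Socs3 (-3.19, SE 0.597), the NF-kappaB inhibitor Nfkbia (-2.41, SE 0.408) and Fkbp5 (-2.11, SE 0.248). Cre- MPTP replicate 1 carried much of the Cebpd values, at 363.5 CPM against 31.1 and 30.1 CPM in the other 2 libraries. Without it Cebpd rose by 2.59 with MPTP and differed by -2.34 between genotypes, Socs3 rose by 3.74 and differed by -2.29, and Nfkbia differed by -1.63, all still past the threshold in edgeR. Without Cre+ MPTP replicate 2 Socs3 differed by -3.89. Dropping any 1 Cre- Saline library raised the adjusted p of Cebpd (0.0563 to 0.0796) and Tnf (0.117 to 0.14) past the threshold, and Tnf was also lost without Cre+ MPTP replicate 1 or 2 (0.0546 and 0.0513, edgeR). Dropping replicate 1, 3 or 4 of the Cre+ MPTP group left 1, 1 or 2 of the 6, and dropping Cre- MPTP replicate 1 gave 10, of which 1 was higher.

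Of 12 reactive astrocyte genes outside the cluster, 9 rose with MPTP in Cre- mice, beside 2.23% of all genes tested. Under MPTP 6 were lower in Cre+ than in Cre- mice, beside 1.03%. The median log2 fold changes of the 12 were 3.04 and -2.17, against 0.03 for all genes in both comparisons. Lcn2, which encodes the secreted protein lipocalin 2, rose by 9.67 (SE 1.09), Steap4 by 5.44 (SE 0.821), the metalloproteinase inhibitor Timp1 by 4.84 (SE 0.707) and the small heat shock protein gene Hspb1 by 4.16 (SE 0.8). Under MPTP Lcn2 (-3.39, SE 0.711), Hspb1 (-3.15, SE 0.683), Aspg (-2.68, SE 0.405) and Timp1 (-2.61, SE 0.565) were lower in Cre+ mice. Hspb1 was at 388.4 CPM in Cre- MPTP replicate 1 against 57.5 and 34.5 CPM in the other 2 libraries. Without that library Hspb1 rose by 2.37 with MPTP and its difference between genotypes was -1.36, which did not pass (adjusted p = 0.0555, edgeR), and its rise was not called without any 1 Cre- Saline library (0.0624 to 0.073). Aspg was at -2.08 between genotypes without the same library. Lcn2 was at -4.77 and Timp1 at -3.58 once Cre+ MPTP replicate 2 was dropped. Dropping replicate 1, 3 or 4 of the Cre+ MPTP group left 2, 1 or 2 of the 6 calls between genotypes, and dropping Cre- Saline replicate 2 or 3 or any 1 Cre+ Saline library left 3. In Cre+ mice none of the inducers or reactive astrocyte genes passed the test with MPTP (edgeR), a comparison in which no gene passed. DESeq2 called 2 reactive astrocyte genes there. The median log2 fold changes there were 0.308 for the 16 inducers and 0.996 for the 12 reactive astrocyte genes, against 0.003 for all genes. Values of the 12 ran from -0.149 for Cd44 (SE 0.364) to 5.93 for Lcn2 (SE 0.933).

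Beyond the cluster, the files held 60 other serpin genes, of which 17 were expressed enough to be tested. With MPTP in Cre- mice 2 rose and 1 fell, while 431 of all 19360 genes tested rose and 185 fell. The median log2 fold change of the 17 serpins was -0.04, against 0.03 for all genes. Serpinf2, which encodes the plasmin inhibitor alpha-2-antiplasmin, rose by 4.32 (SE 0.936, adjusted p = 0.0243, edgeR). Serping1, the C1 inhibitor, rose by 1.49 (SE 0.277, adjusted p = 0.00945, edgeR). Serpinf2 did not pass without any 1 Cre- Saline library (adjusted p = 0.0727 to 0.101), nor Serping1 without Cre- Saline replicate 1 or 2 (0.0589 and 0.0532, edgeR). Serpinb1a, an intracellular inhibitor of neutrophil proteases, fell by 2.74 on the log2 scale (SE 0.435, adjusted p = 0.00379, edgeR), from 26.2 ± 5.11 to 3.73 ± 2.56 CPM. Under MPTP Serpinb1a was higher in Cre+ than in Cre- mice (1.99, SE 0.41, adjusted p = 0.0345, edgeR) and Serping1 lower (-1.13, SE 0.252, adjusted p = 0.0473). Neither gene passed when any 1 Saline library, or replicate 1, 3 or 4 of the Cre+ MPTP group, was dropped.

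Of 18 proteases, among them known targets of these serpins, 11 were tested. In Cre- mice 431 of all 19360 genes tested were higher with MPTP and 185 lower. Among the proteases Mmp9 (1.48, SE 0.367) was higher, and Plau (-1.49, SE 0.334), the urokinase plasminogen activator, and the cysteine protease gene Ctsk (-1.28, SE 0.294) were lower. None of these 3 calls was made when Cre- MPTP replicate 3, Cre+ MPTP replicate 1, Cre- Saline replicate 1 or 2, or any 1 Cre+ Saline library was dropped. No protease passed between genotypes under MPTP in edgeR, while DESeq2 called 1 lower and edgeR called 2 or 3 once Cre- MPTP replicate 1 or 2 was dropped and 1 once Cre+ MPTP replicate 2 was dropped. Classical targets, named here after their values were seen, were scarcely detected, with 0 counts of Ctsg, 8 of Elane and 15 of Gzmb over all 13 libraries. Ctsb, a lysosomal target of the Serpina3g product, had a log2 fold change of 0.04 (SE 0.14) with MPTP in Cre- mice.

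Markers of other cell types were read beside these results. Of 7 neutrophil markers, 5 were tested, and 3 rose with MPTP in Cre- mice, beside 2.23% of all genes tested. Under MPTP 3 were lower in Cre+ than in Cre- mice, beside 1.03%. S100a8 and Retnlg reached the count filter only with the help of the Cre- MPTP libraries, where they were highest. These counts are therefore only a description. The summed level of the 7 markers was 3.83 to 4.78 CPM in Cre- Saline, 13.1 to 65.5 CPM in Cre- MPTP and 5.95 to 8.34 CPM in Cre+ MPTP libraries. The part of these cells in the Serpina3 counts was not tested. Of 6 oligodendrocyte markers 2 fell with MPTP in Cre- mice, where 185 of all 19360 genes tested fell. The sum of the 6 was 12490 to 17150 CPM in Cre- Saline and 9167 to 11780 CPM in Cre- MPTP libraries. The 4 T cell markers summed to at most 1.85 CPM in any library, and microglial markers, of which 1 of 6 fell, to 150 to 216 CPM in Cre- MPTP against 209 to 241 CPM in Cre- Saline libraries.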

How the data were processed

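Whole midbrain from 13 mice was profiled by RNA-Seq (TruSeq Stranded Total RNA), with groups taken from genotype and treatment in the labels. The authors checked reads with FastQC, trimmed them with Trimmomatic 0.36, aligned them to GRCm38 with STAR 2.5.2b, took each gene's uniquely assigned reads with featureCounts of Subread 1.5.2, and deposited these raw counts with no normalization. The strand setting and annotation release are not given in the sources used here. The authors used DESeq2 for their own comparisons. Reads that match several paralogs equally are not in such counts, which lowers the levels of the most similar members.

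From the counts, 48970 of 49315 gene IDs were given a symbol from GENCODE M21. Total counts were 11489150 to 29397278 per library, no 2 libraries held identical values, and 3 counts in a library corresponded to 0.102 to 0.261 CPM. The 19360 genes that reached 10 counts in 3 or more libraries, 7 members among them, were fitted with edgeR 4.0.16 (R 4.3.3) by its quasi-likelihood test, with TMM scaling and 1 term per group over all 13 libraries. The standard error was the absolute log2 fold change over the square root of F, and adjusted p followed Benjamini and Hochberg with a threshold of 0.05. Scripts were tested on simulated data. Shares were compared by exact permutation tests. Likeness was Pearson's r of log2 CPM (prior count 2) among genes with a mean of at least 1 CPM. Alternatives were DESeq2 1.42.0, limma 3.58.1 voom with sample weights, the 2 groups alone, other size factors and filters, a replicate block and leaving out each library. A further alternative, chosen after seeing the data, drops the Cre- MPTP library with the lowest total together with the Cre+ MPTP library that stood apart (replicates 1 and 2).

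The 8 members are given in the comparisons, by counts alone or with no fold where a group held 0 or 1 counts. From each other list up to 4 called genes with the largest change per comparison are named, and for likeness the rule took the top 5 genes per member, of which the leading ones are given. The members and lists were chosen with earlier results of these data known, and part of the reactive astrocyte list lies in the study's own panel, so their counts are not independent evidence of direction. Promoters came from RefSeq (GRCm38.p6) and transcripts from GENCODE M21, both searched by exact letters.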

Additional observations from a re-analysis of the deposited data

Results flagged for a closer look

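Cre+ MPTP replicate 2 stood apart from the other 3 mice of its group. Serpina3n was at 170.5 CPM there and at most 40 CPM in the others, Serpina3f at 4.08 against at most 0.222 CPM, Serpina3i at 1.29 against 0.229 CPM, Serpina3m at 0.336 against 0 CPM, and the cluster total at 181.3 against 44.4 CPM. The gap to the nearest of the other libraries took 0.846 to 1 of the group's range, above Dixon's 95% critical value for 4 samples. That limit holds for normally distributed values, where chance passes it in about 1 in 20 groups. The low counts of Serpina3f, Serpina3i and Serpina3m are not of that kind. For Serpina3m the gap of 1 was fixed once the other 3 libraries held 0 counts. The 5 values are also not independent, since they come from the same library. Serpina3c, Serpina3g and Serpina3h did not pass the limit, and Cre+ MPTP was the only group large enough to be examined. The deviation was not particular to the cluster. Of the 12 reactive astrocyte genes listed outside it, all but S1pr3 were also highest of the group in replicate 2. Lcn2 was at 153.2 CPM there against 15.4 to 25.8 CPM in the other 3, and Gfap at 654.7 against 331 to 385 CPM. S1pr3 was at 10.1 against 8.97 to 11.8 CPM. Replicate 2 also had the lowest total of its group (17713289 counts). Its summed neutrophil markers were 8.34 CPM against 5.95 to 6.75 CPM in the other 3, its oligodendrocyte markers 14400 against 11100 to 12070 CPM, and its astrocyte markers (3928 CPM) lay within their range of 3683 to 3981 CPM. The part of these differences in its Serpina3 counts was not tested.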

How the results depend on the processing

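Of 229 recomputed values of the 12 results that answer a comparison, 194 kept their direction and their side of the threshold, or stayed within 1.5 times a count, and none reversed. The others concern how many members passed, the cluster total between genotypes under MPTP, and the interaction of the total. With MPTP in Cre- mice 3 members passed, against 6 with limma voom, 1 with at least 10 counts required in 7 libraries (a filter that tests fewer members), and 1 to 4 when 1 library was left out. Between genotypes under MPTP 2 passed, against 6 with limma voom, 0 in a fit of the 2 groups alone (fewer samples), 1 with the stricter filter and 0 to 4 when libraries were left out. There the cluster total was -2.68 (adjusted p = 0.307, edgeR) in the 2 groups alone, and -2.40 (without Cre+ MPTP replicate 4) to -3.86 (without Cre- MPTP replicate 1 and Cre+ MPTP replicate 2) when libraries were left out. No member passed the interaction in edgeR, against 1 with DESeq2, 3 with limma voom and 0 to 2 when libraries were left out. The interaction of the total (-2.83, adjusted p = 0.277) passed with DESeq2 (-2.84, adjusted p = 0.017), with limma voom (-3.55, adjusted p = 0.000421) and without Cre+ MPTP replicate 2 (-3.77, adjusted p = 0.00256, edgeR), with a range of -2.56 to -4.01 over the libraries left out. The log2 fold change with MPTP in Cre+ mice changed sign for Serpina3i, with -0.61 under limma voom and -0.87 to 2.13 when libraries were left out, and for Serpina3c, with -0.40 to 1.13. The cause of these changes was not tested. Over all genes, edgeR, DESeq2 and limma voom called 616, 1137 and 2624 genes with MPTP in Cre- mice, 299, 834 and 1224 between genotypes under MPTP, and 2, 223 and 689 for the interaction. Summing Serpina3k with Serpina3m changed no call, since Serpina3k had no counts.

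With the mouse number as a replicate block, 0 members passed between genotypes under MPTP, the total there was -2.57 (adjusted p = 0.0774, edgeR), and the genes called went from 299 to 0. Same-numbered mice did not deviate together (correlations of -0.179 to 0.184 over 18 pairs), so the numbers are not taken as pairs.

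Depth limits the minor members, of which Serpina3f, Serpina3i and Serpina3m had 0 to 11 counts per Saline library, and Serpina3k could not be compared at all.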
